A study of Mus musculus with 20 samples.

Results

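The 7 genes described here carry out and answer sterol sensing in mouse cortex. They are the retention factors Insig1 and Insig2, the escort gene Scap, the transcription factor genes Srebf1 and Srebf2, the ubiquitin ligase gene Mylip and the sterol carrier gene Stard4. They were chosen by symbol from the deposited count table, which lists 43346 genes. All 7 were among the 19623 genes that passed the filter on low counts. The lowest count of any of them in any library was 627, for Mylip.

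The libraries came from cortex of mice that all carried the 5xFAD transgenes on 1 allele. 5xFAD is an amyloid model in which the neuronal Thy1 promoter drives human transgenes that hold mutations of familial Alzheimer's disease. The groups were knockin (KI) mice with the A693S substitution in the lipid transporter gene Abca7 at 10 months, wild-type Abca7 controls at 10 months, KI mice at 3 months and wild-type Abca7 controls at 3 months, with 5 libraries in each. Mice without the transgenes were not analysed here, so neither genotype shows cortex free of amyloid. The protocol names male littermates and knockin animals of both kinds, heterozygous and homozygous, and the label KI leaves the zygosity of a library unstated. Nor do the labels say that every library is its own animal, and p-values therefore refer to variation among libraries, which may in part be technical.

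SREBP transcription factors are made as membrane proteins of the endoplasmic reticulum and are bound there by SCAP. When sterol is low, SCAP escorts them to the Golgi, where proteases release the active part, which turns on genes of cholesterol synthesis and uptake. When sterol is high, INSIG proteins hold the SCAP and SREBP complex back. INSIG1 is itself made from a target gene of SREBP, so its mRNA is often read as an answer to SREBP activity. In adult brain, where lipoproteins of the blood do not enter freely, cholesterol is made locally, chiefly by glia. MYLIP, also called IDOL, marks receptors of the low-density lipoprotein receptor family for degradation, and its gene is a target of the oxysterol receptor LXR.

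Proximal promoters of 2 members are shown because they hold binding motifs of this circuit near the start of genes that behaved differently, Insig1 and Srebf2. The windows run from 250 bases before to 50 bases after the RefSeq transcript start in GRCm38.p6, and both lie on the plus strand. Capitals mark the E-box CACGTG, which lies 101 bases before the start of Insig1 (chr5:28071162-28071461), and the sterol response element core TCACNCCA, which lies 162 bases before the start of Srebf2 (chr15:82147019-82147318).
Insig1: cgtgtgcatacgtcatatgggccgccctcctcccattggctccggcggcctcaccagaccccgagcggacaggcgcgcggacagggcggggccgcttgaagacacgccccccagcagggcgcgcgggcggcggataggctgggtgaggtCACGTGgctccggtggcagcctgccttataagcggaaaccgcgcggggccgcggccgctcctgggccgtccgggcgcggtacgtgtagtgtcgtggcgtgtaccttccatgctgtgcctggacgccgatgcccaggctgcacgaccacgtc
Srebf2: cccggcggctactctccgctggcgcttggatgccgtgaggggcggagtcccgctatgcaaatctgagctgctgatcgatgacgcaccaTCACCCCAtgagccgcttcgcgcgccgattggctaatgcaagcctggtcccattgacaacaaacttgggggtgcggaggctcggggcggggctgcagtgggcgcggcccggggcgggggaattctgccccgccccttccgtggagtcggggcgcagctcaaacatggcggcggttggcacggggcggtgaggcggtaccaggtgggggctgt
On both strands, the E-box was found in 7.15% and the sterol response element core in 4.36% of 32851 RefSeq promoter windows of the same length. A CCAAT box (CCAAT, in 37.4% of windows) lies 135 bases before the start of Srebf2 and 216 bases before that of Insig1. Both promoter windows of Scap, which overlap, also hold an E-box, the same site at 28 and -40 bases from their RefSeq starts. Scap was not called in KI against control at 10 months, with a log2 fold change of -0.05. The windows shown were picked by how their genes behaved, and whether a motif goes with a response was not tested. A match is a run of letters and not evidence of binding.

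Total counts ran from 42896149 to 57447015 per library, so counting error was small for genes at these counts. Slc17a7, a marker of cortical excitatory neurons, stood between 870.0 and 1408 CPM in all 20 libraries. The marker score of thalamus was above 0 in 0 of 10 libraries at 10 months, and at 3 months in 5 of 5 from KI and 2 of 5 from control. The protocol names males, yet KI replicate 5 at 10 months held 1016 CPM of Xist, which is made by the silenced X chromosome of females, and 0.0187 CPM of Ddx3y, which lies on the Y chromosome. KI replicate 3 at 3 months stood lowest in Scap, Srebf1 and Srebf2 of all 20 libraries. Leaving out either of those libraries left the number of members called in every comparison as it was. In bulk cortex, fewer cells of a type and less RNA per cell cannot be told apart.

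Levels between genes were compared as RPKM, that is, CPM divided by the deposited gene length in kilobases. In KI cortex at 10 months Insig1 was the highest, at 43.1 ± 1.22 RPKM, followed by Srebf2 at 35.9 ± 4.19 RPKM (SD, n = 5 each). In control cortex at 3 months the order was the other way round, with Srebf2 at 35.6 ± 3.89 and Insig1 at 26.0 ± 2.14 RPKM (SD, n = 5 each). Scap came next over all 20 libraries at 19.6 RPKM on average, then Insig2 at 15.3 and Stard4 at 11.8 RPKM. Scap has a deposited length of 4275 bases, against 7443 exonic bases in GENCODE. Lengths also differ for Srebf2 (4989 against 7184), Insig1 (2697 against 3093) and Mylip (3062 against 3233). The place of Scap in this order therefore depends on the length used. Srebf1, at 6.24 RPKM, and Mylip, at 5.78 RPKM, had the lowest levels, and their ranges overlapped. The ranges of Insig2, at 13.1 to 17.3 RPKM, and Stard4, at 8.20 to 15.9 RPKM, also overlapped, as did those of Scap and Insig2.

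**Figure D1:**
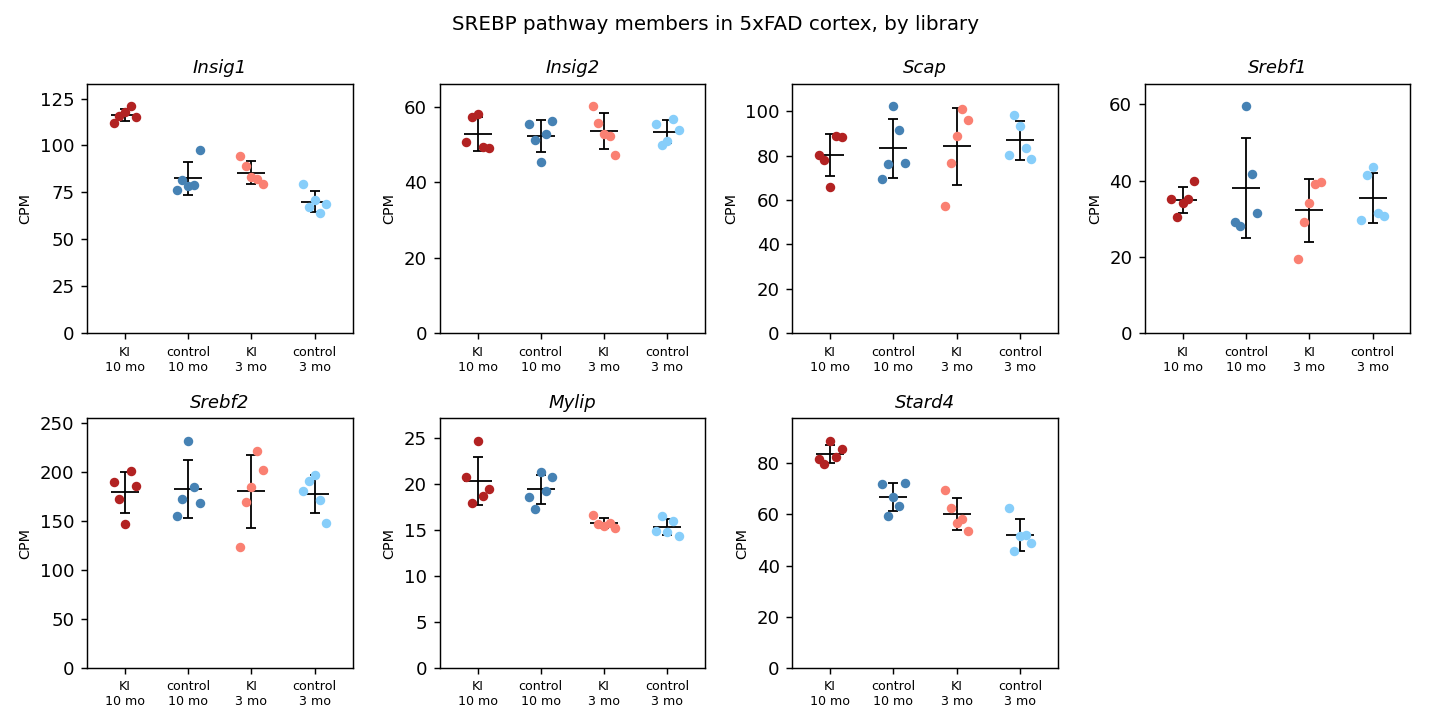
CPM of the 7 members in each library, by group; points are libraries, the bar is the mean and the whiskers are 1 SD (n = 5). All 5 KI libraries at 10 months lie above all other libraries for Insig1 and Stard4, Mylip is higher at 10 months in both genotypes, and the other 4 genes overlap in all groups.

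The comparison of KI with control at 10 months asks how the substitution bears on an amyloid-laden cortex. Insig1, the feedback brake on SREBP export, had 111.9, 115.7, 117.8, 120.9 and 115.1 CPM in KI libraries, against 76.2, 81.6, 78.2, 78.8 and 97.8 CPM in control libraries. The lowest KI library lay above the highest control library, and 4 of the 5 control libraries stood within a narrow band. Insig1 rose 1.41-fold in KI cortex, with a log2 fold change of 0.49 ± 0.07 (SE, edgeR adjusted p = 0.00225). It was the 1 member of 7 called at 10 months, where 0.0612% of all tested genes were called in either direction.

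Stard4, a soluble carrier that moves sterol between membranes and a known SREBP2 target, had 81.8, 79.8, 88.7, 82.6 and 85.5 CPM in KI libraries at 10 months, against 72.0, 59.5, 67.0, 63.3 and 72.2 CPM in control libraries. These groups did not overlap either. The log2 fold change was 0.33 ± 0.08 (SE), a ratio of 1.25, and it missed the threshold over all genes (edgeR adjusted p = 0.258). It passed with limma-voom and with the GC slope described further on as a covariate (adjusted p = 0.0258 with edgeR), and its adjusted p ran up to 0.724 over the 13 alternatives tried. Groups that did not overlap, in either direction, made up 2 of 7 members and 1.49% of all tested genes.

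Markers of other cell types differed in the same comparison, with none called. All 14 choroid plexus markers lay below 0 in KI against control at 10 months (median -0.92 on the log2 scale). Their summed level ran from 31.0 to 1377 CPM in KI cortex (median 43.6) and from 34.4 to 2204 CPM in control cortex (median 864), so the groups overlapped, and at 3 months all 14 lay above 0. All 12 markers of mature oligodendrocytes, the myelin-forming glia, lay above 0 at 10 months with a median of 0.15, and their summed level ran from 3638 to 4570 CPM in KI cortex and from 3171 to 4325 CPM in control cortex. None of the 9 tested markers of oligodendrocyte precursors lay above 0, with a median of -0.14. No marker of these 3 lists was at 0 in any library. Insig1 had a log2 fold change of 0.47 with the choroid plexus score as a covariate (edgeR adjusted p = 0.00611) and of 0.49 with the mature oligodendrocyte score (edgeR adjusted p = 0.0132).

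The sensor and the transcription factors stood apart from Insig1 and Stard4. Insig2, the second retention gene, which is not known as an SREBP target, averaged 52.9 ± 4.44 CPM in KI cortex and 52.3 ± 4.32 CPM in control cortex at 10 months (SD, n = 5 each). Its log2 fold change was 0.02, with a 95% interval of -0.14 to 0.17. Srebf2, the activator of sterol genes, averaged 179 ± 20.9 CPM in KI cortex and 182 ± 29.5 CPM in control cortex, with an interval of -0.30 to 0.25. Scap averaged 80.3 ± 9.51 CPM in KI cortex and 83.2 ± 13.4 CPM in control cortex, with an interval of -0.32 to 0.22. Srebf1, which drives fatty acid synthesis, averaged 35.0 ± 3.39 CPM in KI cortex and 38.0 ± 13.2 CPM in control cortex, with an interval of -0.53 to 0.28. Mylip averaged 20.3 ± 2.65 CPM in KI cortex and 19.4 ± 1.61 CPM in control cortex, with an interval of -0.10 to 0.23. None of these 5 passed the test. The median over the 7 members was 0.02, beside 0.00 over all tested genes.

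At 3 months 0 of 7 members were called, where 0.0255% of all tested genes were. At an unadjusted p under 0.05 there were 2 of 7, where 3.8% of all tested genes were, and DESeq2 and limma-voom each called 0. Insig1 had 94.3, 89.0, 82.9, 81.9 and 79.2 CPM in KI libraries, against 79.3, 67.1, 70.9, 64.1 and 68.7 CPM in control libraries. For Insig1 the groups overlapped by 1 library of each. The groups of all 7 members overlapped to some extent at this age, where 0.657% of all tested genes had no overlap. The log2 fold change of Insig1 was 0.29 ± 0.07 (SE, edgeR adjusted p = 0.653). Stard4 averaged 60.2 ± 6.19 CPM in KI cortex and 52.1 ± 6.30 CPM in control cortex (SD over 5 libraries), with a log2 fold change of 0.21 ± 0.08 (SE, edgeR adjusted p = 1.00). The other 5 members lay between -0.13 and 0.04 on the log2 scale.

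Averaged over both ages, Insig1 was again the 1 member of 7 called, where 0.0764% of all tested genes were. Its log2 fold change was 0.39 ± 0.05 (SE, edgeR adjusted p = 0.000355). Stard4 had 0.27 ± 0.06 (SE, edgeR adjusted p = 0.0965), and the adjusted p was 0.0202 without control replicate 6 at 3 months, the highest control library of that age at 62.5 CPM. Whether the genotype difference changed with age was tested as an interaction. No member was called there, nor was any of all tested genes (0%), with 883 genes at an unadjusted p under 0.05 and 3 called by each of DESeq2 and limma-voom. For Insig1 the interaction was 0.21 ± 0.10 on the log2 scale (SE, edgeR adjusted p = 0.999).

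**Figure D2:**
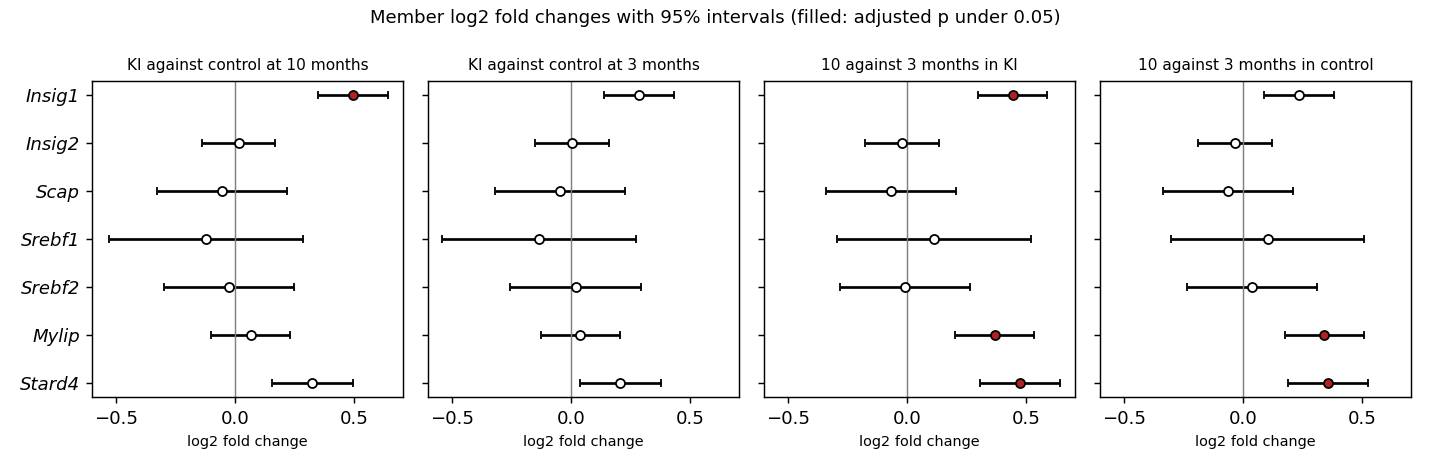
Log2 fold change of each member in 4 comparisons, with 95% intervals; filled points have an edgeR adjusted p under 0.05. Insig1 and Stard4 lie to the right of 0 in all 4 panels, Mylip has an interval clear of 0 in the age panels, and the intervals of Scap, Srebf1 and Srebf2 are the widest.

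The ratio of Insig1 to Insig2 within a library does not depend on library scaling. At 10 months the ratio of counts was 2.20, 2.02, 2.03, 2.45 and 2.35 in KI libraries, against 1.37, 1.59, 1.72, 1.49 and 1.74 in control libraries. At 3 months it was 1.57, 1.60, 1.57, 1.56 and 1.68 in KI libraries, against 1.43, 1.35, 1.39, 1.13 and 1.27 in control libraries. KI and control did not overlap at either age. The mean log2 ratio was 0.48 higher in KI at 10 months and 0.29 higher at 3 months, each with a 2-sided exact permutation p of 0.00794, the smallest that 5 against 5 libraries allow. Adjusted by Benjamini-Hochberg over the 4 ratio tests made here, both p-values are 0.0159, and all 5 KI libraries lay above all 5 control libraries at each age. Insig2 had log2 fold changes of 0.017 at 10 months and 0.0055 at 3 months, so the ratio largely repeats the Insig1 difference and is not separate evidence. The ratio tests were chosen with earlier results of these libraries known.

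The ratio of Srebf1 to Srebf2 gave no such separation. It averaged 0.197 ± 0.0261 in KI cortex and 0.205 ± 0.0371 in control cortex at 10 months (SD over 5 libraries, 2-sided exact permutation p = 0.738). At 3 months it averaged 0.178 ± 0.0137 in KI cortex and 0.199 ± 0.0240 in control cortex (SD over 5 libraries, exact permutation p = 0.143). Without control replicate 6 the difference at 3 months was -0.22 on the log2 scale (exact permutation p = 0.0397), and without control replicate 8 the one at 10 months turned to 0.040.

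**Figure D3:**
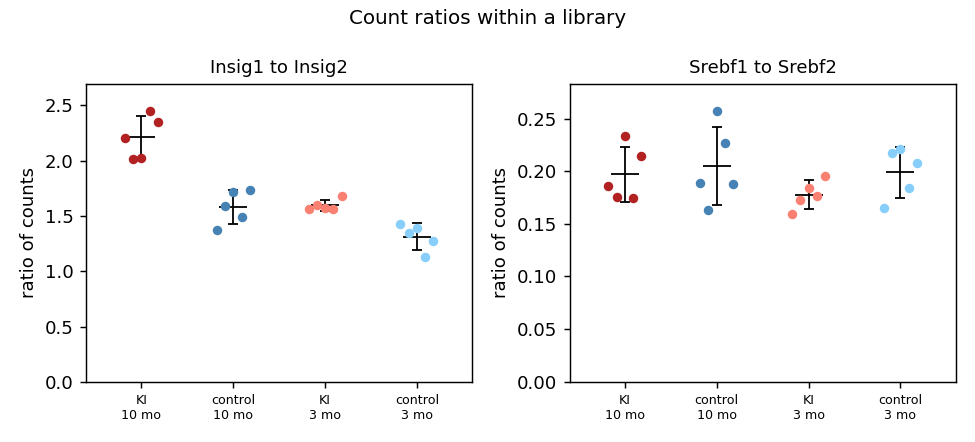
Ratios of counts within each library for Insig1 to Insig2 and Srebf1 to Srebf2; points are libraries, bars are means and whiskers are 1 SD (n = 5). For Insig1 to Insig2 the lowest KI library lies above the highest control library at 10 months (2.02 against 1.74) and at 3 months (1.56 against 1.43), whereas Srebf1 to Srebf2 overlaps.

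Between the ages 3 members differed in KI cortex. Insig1, Mylip and Stard4 rose at 10 months against 3 months, and for each the lowest library at 10 months lay above the highest at 3 months. Among all tested genes 8.06% were called in either direction, and 7.17% had groups that did not overlap. Insig1 averaged 116.3 ± 3.30 CPM at 10 months and 85.5 ± 6.12 CPM at 3 months in KI (SD, n = 5 each), a log2 fold change of 0.44 ± 0.07 (SE, edgeR adjusted p = 0.000214). Stard4 averaged 83.7 ± 3.48 CPM at 10 months and 60.2 ± 6.19 CPM at 3 months in KI, a log2 fold change of 0.48 ± 0.08 (SE, edgeR adjusted p = 0.000496).

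Mylip had 20.8, 18.0, 24.7, 18.8 and 19.5 CPM in KI libraries at 10 months, against 16.6, 15.6, 15.4, 15.8 and 15.3 CPM in KI libraries at 3 months. The highest of these was replicate 5, the library with Xist. Mylip rose by a log2 fold change of 0.37 ± 0.08 (SE, edgeR adjusted p = 0.00479), and by 0.29 without that library (edgeR adjusted p = 0.0118). In control it had 18.6, 17.3, 21.3, 19.2 and 20.7 CPM at 10 months, against 14.9, 16.5, 14.8, 16.0 and 14.3 CPM at 3 months. The control groups did not overlap either, and Mylip rose by 0.34 ± 0.08 (SE, edgeR adjusted p = 0.0124).

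In control cortex 2 of 7 members were called with age, Mylip and Stard4, where 4.07% of all tested genes were called. Mylip alone had control groups without overlap, where 5.69% of all tested genes had none. Stard4 averaged 66.8 ± 5.49 CPM at 10 months and 52.1 ± 6.30 CPM at 3 months in control cortex (SD over 5 libraries), a log2 fold change of 0.36 ± 0.08 (SE, edgeR adjusted p = 0.0104). Insig1 averaged 82.5 ± 8.76 CPM at 10 months and 70.0 ± 5.77 CPM at 3 months in control, and its log2 fold change of 0.24 ± 0.07 missed the threshold (SE, edgeR adjusted p = 0.0668). It passed with limma-voom (adjusted p = 0.0197), 1 surrogate variable (0.0314), a filter at a mean of 1 CPM (0.0484), the GC slope (0.0110) and without control replicate 6 at 3 months (0.0246), and over all alternatives its adjusted p ran up to 0.231. The call of Mylip in control was lost without control replicate 10 of either age, with an adjusted p of up to 0.0587.

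Insig2, Scap, Srebf1 and Srebf2 lay between -0.07 and 0.11 on the log2 scale with age in both genotypes, and none was called. The median over the 7 members was 0.11 in KI and 0.10 in control, beside -0.0031 and -0.0034 over all tested genes. With the thalamus score as a covariate none of the age calls held. The log2 fold changes in KI were then 0.43 for Insig1, 0.39 for Stard4 and 0.27 for Mylip, with adjusted p of 0.0940, 0.257 and 0.529. In control the edgeR adjusted p was then 0.0821 for Stard4 and 0.101 for Mylip. In KI that score ran from -0.56 to -0.36 at 10 months and from 0.36 to 1.34 at 3 months, so there it and age cannot be told apart. In control the score ran from -0.53 to -0.38 at 10 months and from -0.54 to 0.88 at 3 months, so the ages overlapped.

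Microglial markers moved with age beside Mylip. Their summed level ran from 873 to 1121 CPM in KI and from 720.1 to 962 CPM in control cortex at 10 months, and from 404 to 458 CPM in KI and from 359 to 456 CPM in control cortex at 3 months. All 11 markers lay above 0 on the log2 scale with age in both genotypes. Of these, 9 were called in KI and 7 in control, where 8.06% and 4.07% of all tested genes were called. No marker had a count of 0 in any library. The part of microglia in the change of Mylip was not tested. Over all 20 libraries, with each group's mean subtracted, the genes whose level was most like that of Mylip included Srgn (r = 0.80, Spearman's rho = 0.82), a proteoglycan gene of blood cells and microglia, and the LXR target Abca1 (r = 0.79, rho = 0.66). Without the 2 libraries farthest from the median of Mylip, r was 0.69 for Srgn and 0.61 for Abca1. Genes of a library share its depth and base composition, which differ between libraries. Srgn and Abca1 were also picked as the highest of all candidates, so the correlations describe these libraries only.

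By the same rule Stard4 was most like Skil (r = 0.90, rho = 0.86), a repressor of SMAD signalling, Hmgcs1 (r = 0.89, rho = 0.81), an early enzyme of the mevalonate pathway, and the sterol transfer gene Osbpl8 (r = 0.87, rho = 0.85). The genes most like Insig1 included Mcph1 (r = 0.81, rho = 0.80) and Smad9 (r = 0.79, rho = 0.66). Without subtracting group means, the same 3 enzymes of late cholesterol synthesis, Msmo1, Nsdhl and Sqle, were nearest to both Insig1 (r of 0.87 to 0.88) and Stard4 (r of 0.94 to 0.95). Insig1 and Stard4 were related to each other within groups with r = 0.65 and rho = 0.45 (n = 20), and r was 0.48 without the 2 libraries farthest from the median of Insig1.

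The spread of Scap, Srebf1 and Srebf2 between libraries of a group had a common axis. Within groups, Scap was related to Srebf2 with r = 0.95 (rho = 0.93), to Srebf1 with r = 0.89 (rho = 0.88) and to Insig2 with r = -0.83 (rho = -0.82), over 20 libraries. The genes most like Scap were Mta1, Vars and Eml2 (r = 0.99 each, rho of 0.95 to 0.98). For Srebf2 they included Ints1 (r = 0.98, rho = 0.97) and Furin, the gene of a Golgi protease (r = 0.98, rho = 0.95). For Srebf1 they were Slc32a1, Ctdsp1 and Kcnh2 (r of 0.94 to 0.95, rho of 0.88 to 0.94), and for Insig2 they were Dcun1d1, Rab1 and St8sia3 (r = 0.94 each, rho of 0.92 to 0.97). Scap, Srebf1 and Srebf2 have GC-rich transcripts, at 59.1% for Scap, 58.4% for Srebf1 and 57.9% for Srebf2, above 90.2% or more of the tested genes with a mean of at least 1 CPM. Insig1 has 48.2%, Insig2 46.0% and Stard4 43.9%. For each library a GC slope was taken, the change of log2 CPM over these genes for each 10% of GC. It ran from -0.25 to 0.08 in KI and from -0.18 to 0.27 in control cortex at 10 months, and from -0.48 to 0.19 in KI and from -0.06 to 0.14 in control cortex at 3 months.

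The within-group deviation of a member followed this slope with r = 0.98 for Scap (rho = 0.97), 0.95 for Srebf2 (rho = 0.93) and 0.87 for Srebf1 (rho = 0.85). It ran against the slope for Insig2 with r = -0.84 (rho = -0.83), for Stard4 with r = -0.64 (rho = -0.59) and for Insig1 with r = -0.49 (rho = -0.51). Mylip had r = -0.19 and rho = 0.02 (n = 20 for each). The lowest slope of all was that of KI replicate 3 at 3 months, where Scap had 57.4, Srebf1 19.6 and Srebf2 123.0 CPM. The highest was that of control replicate 8 at 10 months, where Scap had 102.3, Srebf1 59.5 and Srebf2 231.2 CPM. Those 2 libraries hold the lowest and the highest level of all 3 genes among the 20.

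With the slope as a covariate, a fit chosen after the data were seen, the intervals of the GC-rich members narrowed around 0. At 10 months the 95% interval of the KI against control difference in Scap was then -0.07 to 0.07, against -0.32 to 0.22 without it. For Srebf2 it was -0.07 to 0.12, and for Srebf1 -0.23 to 0.21. Insig1 had 0.48 ± 0.06 (SE, edgeR adjusted p = 0.000164) and Stard4 0.31 ± 0.06 (SE, edgeR adjusted p = 0.0258) at 10 months in that fit. Exons of Scap also share 985 bases, 13.2% of its exonic length, with the opposite-strand gene 5830462I19Rik, and those of Srebf1 share 109 bases (1.93%) with Rai1. The strand setting of the counting is not given in the sources used here, so reads of such pairs may be mixed.

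**Figure D4:**
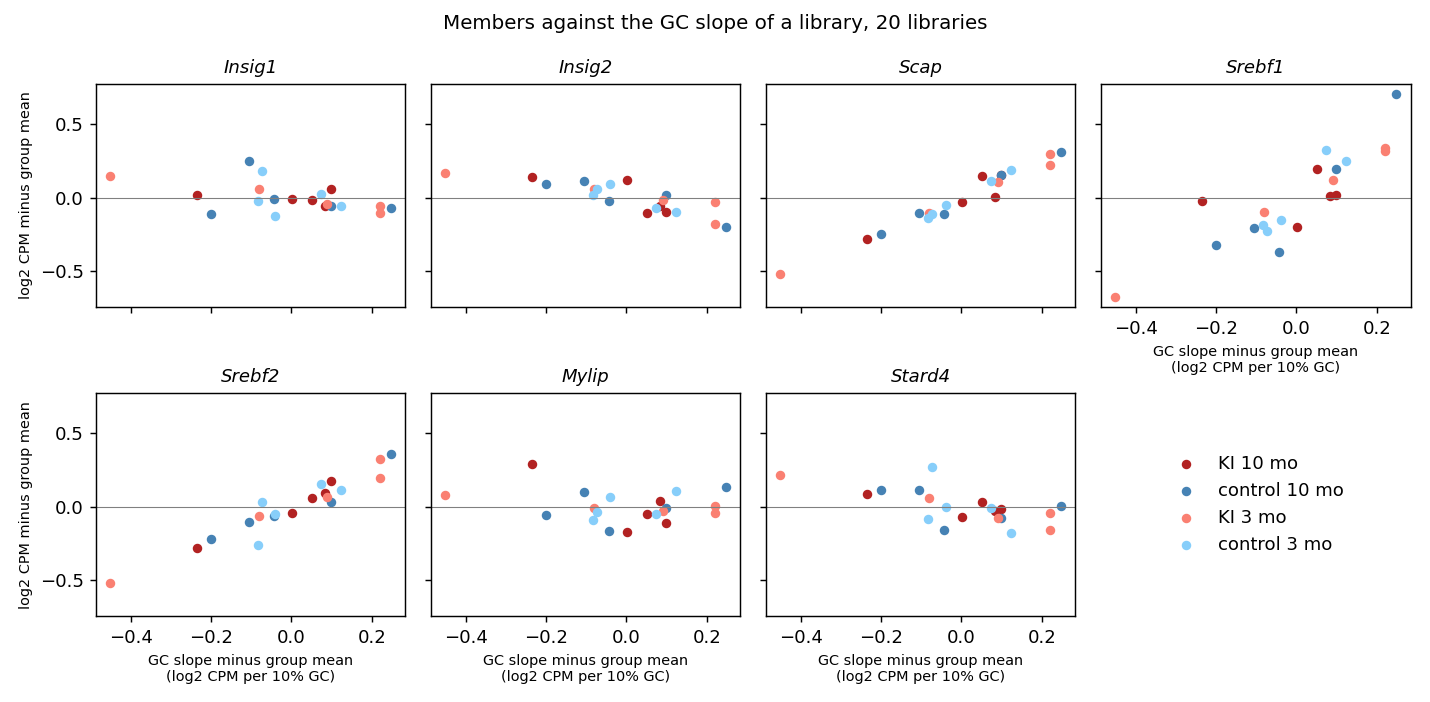
Log2 CPM of each member minus its group mean (vertical) against the GC slope of the library minus its group mean (horizontal, log2 CPM per 10% GC) in 20 libraries. Scap, Srebf2 and Srebf1 climb with the slope (r = 0.98, 0.95 and 0.87), Insig2 descends (r = -0.84) and Mylip shows little relation (r = -0.19).

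Genes that act on the same circuit were counted from 7 lists. Of all tested genes, edgeR called 0.0612% in KI against control at 10 months and 0.0255% at 3 months. With age it called 8.06% in KI and 4.07% in control. An unadjusted edgeR p under 0.05 was reached by 7.86%, 3.8%, 21.2% and 13.6% of all tested genes, in that order. In the list of SREBP activation and retention in the endoplasmic reticulum, with the proteases Mbtps1 and Mbtps2, COPII coat genes and ligases that degrade INSIG, 0 of 23 genes were called in KI against control at 10 months or at 3 months or with age in either genotype. In these 4 comparisons 0, 0, 1 and 3 genes had an unadjusted p under 0.05. DESeq2 and limma-voom called 0 in 3 of them, and 1 and 2 genes with age in control. The nearest was Trim21, a ubiquitin ligase gene, with age in control (log2 fold change 0.56 ± 0.16, SE, edgeR adjusted p = 0.0612).

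The cholesterol synthesis enzymes are the classical targets of SREBP2. In KI against control at 10 months 19 of 21 lay above 0 with a median of 0.18, beside 0.00 over all tested genes. In that comparison, where 0.0612% of all tested genes were called, 3 of the 21 were called higher. They were Acat2, an acetyl-CoA acetyltransferase gene, with 72.5 ± 5.79 CPM in KI cortex and 57.5 ± 3.29 CPM in control cortex (SD over 5 libraries, edgeR adjusted p = 0.0258), the squalene synthase gene Fdft1 and the dehydrogenase gene Nsdhl. Fdft1 averaged 178 ± 7.17 CPM in KI cortex and 148 ± 4.35 CPM in control cortex (edgeR adjusted p = 0.0452), and Nsdhl 61.4 ± 4.98 CPM in KI cortex and 49.0 ± 0.963 CPM in control cortex (edgeR adjusted p = 0.0497). Fdft1 overlaps Ctsb, a gene of the opposite strand, so its counts are uncertain. Fdft1 and Nsdhl lost the call whichever of the 10 libraries was left out, and Acat2 with 7 of them. In the same comparison the choroid plexus markers lay lower and the mature oligodendrocyte markers higher in KI, as given above. With either score as a covariate the 3 enzymes kept log2 fold changes of 0.25 to 0.34 but were not called, with adjusted p from 0.0679 to 0.193. At 3 months 0 of 21 were called, by edgeR, DESeq2 or limma-voom, with 10 at an unadjusted p under 0.05. All 21 lay above 0 there, with a median of 0.13. In that comparison all 12 thalamus, 14 choroid plexus and 10 meningeal fibroblast markers also lay above 0. Their medians were 0.46, 0.93 and 0.42, while all 10 striatum and 5 erythrocyte markers lay below 0. The part of such tissue differences in the sign of the enzymes was not tested. The enzymes and the members were known from earlier results of the same libraries, so their common sign is not independent of the choice.

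With age 7 of the 21 enzymes were called higher in KI (Acat2, Fdps, Fdft1, Sqle, Lss, Msmo1 and Nsdhl). In control 6 were called higher (those other than Msmo1). Of all tested genes 8.06% were called with age in KI and 4.07% in control. The median over the list was 0.19 in KI and 0.20 in control. Acat2 averaged 72.5 ± 5.79 CPM at 10 months and 46.8 ± 1.78 CPM at 3 months in KI (SD, n = 5 each), and 57.5 ± 3.29 CPM at 10 months and 43.2 ± 1.62 CPM at 3 months in control. Its log2 fold change was 0.63 ± 0.06 in KI cortex and 0.41 ± 0.06 in control cortex (SE). Fdps, the farnesyl diphosphate synthase gene, had 0.50 ± 0.08 in KI cortex and 0.38 ± 0.08 in control cortex. With the thalamus score as a covariate Acat2, Fdft1 and Nsdhl were still called in both genotypes, while Fdps, Sqle, Lss and Msmo1 were not in KI and Sqle was not in control. Whether these differ between genotypes was part of the interaction test, in which 0 genes were called.

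Among 23 genes of sterol transport and storage, 0 were called between genotypes at either age, with 4 at an unadjusted p under 0.05 at 10 months and 0 at 3 months. Limma-voom called 1 and DESeq2 0 at 10 months, and both called 0 at 3 months. With age in KI 3 were called higher and 1 lower, where 8.06% of all tested genes were called. The lysosomal cholesterol carrier Npc2 rose 1.81-fold, with 90.2 ± 5.94 CPM at 10 months and 49.95 ± 4.69 CPM at 3 months (SD, n = 5 each, edgeR adjusted p = 2.9e-08), and Tmem97, which binds sterol in the endoplasmic reticulum, rose 1.29-fold. Scp2, a peroxisomal sterol carrier gene, rose by 0.19 on the log2 scale, and Osbpl8, a lipid exchanger of membrane contacts, fell by 0.44. The calls of Scp2 and Osbpl8 were lost without 7 and without 5 of the 10 libraries, 1 at a time, and those of Tmem97, Scp2 and Osbpl8 with the thalamus score as a covariate. In control Npc2 rose 1.64-fold and no other gene of the list was called. Npc2 is well expressed in microglia, whose markers rose in the same comparisons, and their part was not tested.

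Of 7 genes that make or clear oxysterols, 0 were called between genotypes at either age, and 0 had an unadjusted p under 0.05 or a call by DESeq2 or limma-voom. Ch25h, which makes a 25-hydroxylated oxysterol that blocks SREBP export, rose with age 9.67-fold in KI and 6.03-fold in control. It averaged 1.54 ± 0.492 CPM at 10 months and 0.157 ± 0.0378 CPM at 3 months in KI (SD, n = 5 each, edgeR adjusted p = 6.04e-08), and 1.13 ± 0.387 CPM at 10 months and 0.184 ± 0.0453 CPM at 3 months in control (edgeR adjusted p = 1.69e-06). In brain it is a gene of activated microglia, and the same marker change stands beside it.

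The lists nearer to Srebf1 and Mylip held few calls. Of 12 tested genes of LXR and its targets 0 were called by edgeR in the 4 comparisons, with 1, 0, 1 and 0 at an unadjusted p under 0.05, limma-voom called 2 with age in KI, and DESeq2 called 0. In each of the next 2 lists 0 genes were called between genotypes at either age by edgeR, DESeq2 or limma-voom, with 0 at 10 months and 1 at 3 months at an unadjusted p under 0.05. Of 18 fatty acid synthesis targets of SREBP1, the desaturase gene Fads1 rose with age in KI (log2 fold change 0.21 ± 0.06, SE, edgeR adjusted p = 0.0287). Of 21 genes of the low-density lipoprotein receptor family and its handling, Usp2, a deubiquitinase known to counter MYLIP, rose with age in KI, with 103.8 ± 13.4 CPM at 10 months and 81.8 ± 6.51 CPM at 3 months (SD, n = 5 each, edgeR adjusted p = 0.0229), and edgeR called no other gene of these 2 lists with age. Limma-voom called 4 of the fatty acid synthesis targets with age in KI and 2 in control, and 1 gene of the receptor list in each genotype. The calls of Fads1 and of Usp2 were each lost without 6 of the 10 libraries, 1 at a time, and with the thalamus score as a covariate.

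**Figure D5:**
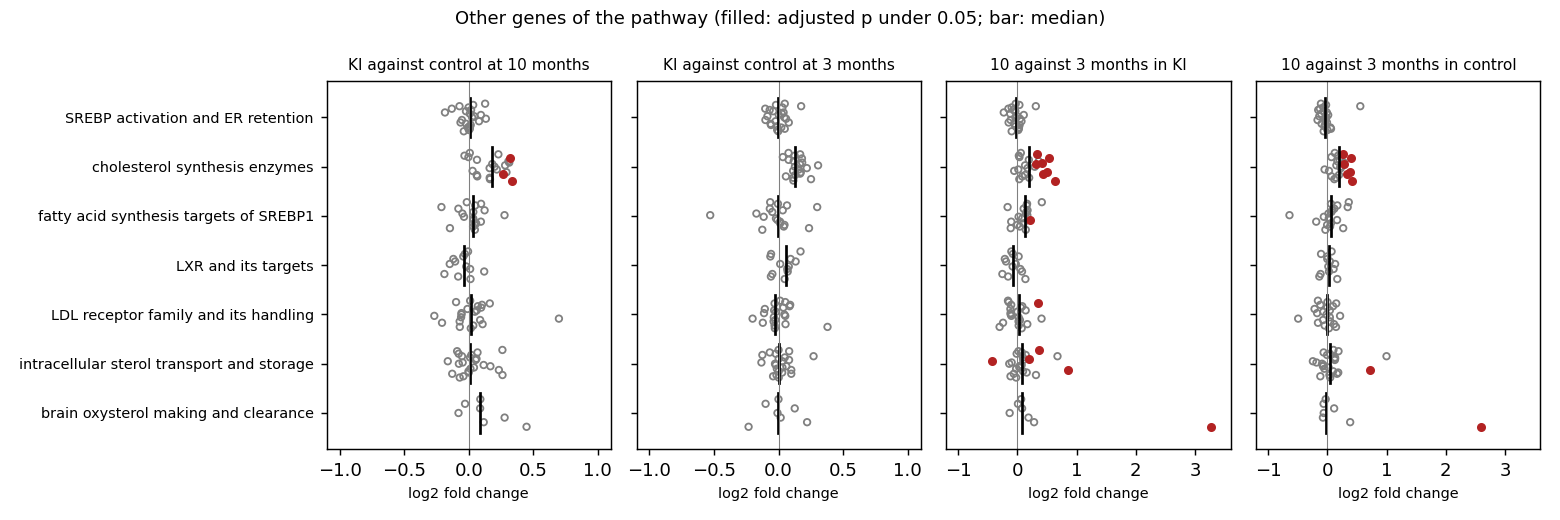
Log2 fold change of each gene of the 7 lists in 4 comparisons; open circles were not called, filled circles have an edgeR adjusted p under 0.05, and the vertical bar is the median of the list. The cholesterol synthesis enzymes have medians of 0.18, 0.13, 0.19 and 0.20 from left to right, and the outlying filled point in the age panels, whose horizontal range is wider, is Ch25h.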

How the data were processed

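The authors deposited raw counts per gene for 20 cortex libraries sequenced on an Illumina HiSeq 4000, per the labels' protocols. Per the submitters' processing notes the genome build was mm10. The aligner, counter and annotation release are not given in the sources used here. Member symbols, gene lists and the tests were chosen with earlier results of these data known. Counts were filtered with filterByExpr, scaled by TMM and fitted over all 4 groups with edgeR 4.0.16 (R 4.3.3, quasi-likelihood F test), with Benjamini-Hochberg adjustment over all 19623 genes and calls at 0.05. CPM and RPKM were computed from the counts with TMM-scaled totals. The fit was also run on simulated counts with known changes. These were drawn without the GC and tissue differences between libraries, so they cannot show how the fit deals with such differences. Named were all members, the called genes of each list or else up to 2 of smallest p, and the 3 genes most like each member among those with a mean of at least 1 CPM (log2 CPM, prior count 2), some of which are not reported here. List scores are means of centred log2 CPM, and GC content came from the longest GENCODE transcript of a gene, found for 98.9% of tested genes. Alternatives were DESeq2 1.42.0, limma-voom 3.58.1, 1 surrogate variable (sva 3.50.0), RLE scaling, other filters, marker scores, the GC slope or the replicate number as covariates, only the compared libraries, a threshold of 0.10, and each library left out.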

Additional observations from a re-analysis of the deposited data

Results flagged for a closer look

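Among the groups of 5 libraries tested, 1 held a library far from the others. Insig1 stood at 97.8 CPM in control replicate 10 at 10 months, while the other 4 control libraries of that age ran from 76.2 to 81.6 CPM. The gap was 0.751 of the whole range, above the critical value of 0.71 for 5 samples. Of 36 groups tested 1 was marked, and chance marks about 1 in 20. Without that library the KI against control call of Insig1 at 10 months held.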

How the results depend on the processing

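Insig1 at 10 months was called in 12 of 13 alternatives and in all 10 fits that left out 1 library (edgeR adjusted p from 0.000118 to 0.0169), and averaged over ages in 11 of 12 and all 20. The titles' replicate numbers carried no pairing: the correlation passed 0.1 for 4 of 18 same-number pairs, and 2 of 20 libraries were nearest to their own number. KI and control share few numbers, so a replicate block leaves little of the genotype contrast, and with the block 0 members were called at 10 months and averaged (Insig1 0.47, adjusted p = 0.445, and 0.36, adjusted p = 0.564). The number called at 10 months, 1 by edgeR, was 2 with limma-voom or the GC slope, Stard4 being added. Averaged over ages it was 2 with DESeq2, limma-voom, 1 surrogate variable, the GC slope or a threshold of 0.10, and 1 to 2 with a library left out. With the thalamus score as a covariate it was 0 with age in KI, against 3, and 0 in control, against 2. With a library left out the control count ran from 1 to 3, and it was 3, Insig1 being added, with limma-voom, 1 surrogate variable, the 1 CPM filter, the GC slope or a threshold of 0.10. Without a library the Srebf1 to Srebf2 difference ran from -0.22 to -0.12 at 3 months and from -0.12 to 0.040 at 10 months, the sign turning without control replicate 8. Causes were not tested.

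Over all genes the calls at 10 months numbered 84 with the GC slope, 75 with limma-voom, 58 with DESeq2 and 4 with the replicate block, against 12. At 3 months they numbered 11, 12, 12 and 4, against 5. With age in KI they numbered 4086 with the GC slope, 3027 with limma-voom, 2667 with 1 surrogate variable and 275 with the thalamus score, against 1582. In control they numbered 2009 with the GC slope and 1254 with limma-voom, against 799. Of 3575 values of single genes under alternatives, 3387 kept their side of the threshold, 131 lost a call, 57 gained one and 0 called values changed sign. Scap, Srebf1 and Srebf2 changed sign in some settings while called in none, with the block giving 0.23, 0.30 and 0.20 for KI against control at 10 months.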
